A study of Saccharomyces cerevisiae with 9 samples.

Results

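The region described here is the 3′ portion of the interior of the 25S rRNA gene on the 35S rDNA repeat of Saccharomyces cerevisiae. It was chosen by position alone, as positions 4950 to 6617 of the repeat, with the last 30 nt of 25S left out, and it holds 1668 of the 6858 positions measured (24.3%). Counted within 25S rRNA these are nucleotides 1699 to 3366. In the R64 assembly the stretch lies inside the exon of RDN25-2 on the minus strand at chrXII:460953-462620, and the second annotated copy, RDN25-1, carries the same bases at chrXII:451816-453483 with 0 differences. All values below are numbered on the repeat, 5′ to 3′ along the RNA.

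RNA polymerase I (Pol I) transcribes the rDNA repeat as a single long precursor that is cut and modified to give the 18S, 5.8S and 25S rRNAs. The 25S rRNA forms the core of the large ribosomal subunit, and its 3′ portion holds the peptidyl transferase centre, where peptide bonds form, and the sarcin-ricin loop, where translation factors bind. Several enzymes methylate single bases of this stretch. Bmt2 makes a 1-methyladenosine, Bmt5 and Bmt6 each make a 3-methyluridine, and Rcm1 and Nop2 each make a 5-methylcytidine.

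Native elongating transcript sequencing (NET-seq) isolates RNA together with the polymerase and reads its 3′ end, which for a nascent RNA is the last base that Pol I had added. The region lies wholly inside mature 25S rRNA, which NET-seq samples also carry. Nascent and mature 25S have the same sequence and cannot be told apart here, so every peak, gap and share below is one of RNA 3′ ends and not of Pol I alone. Wild-type yeast was compared in 3 subphases of logarithmic growth, early log, mid log and late log, with 3 libraries each that were described as biological replicates. All 9 libraries came from a MATa strain with ade2-1, ura3-1, trp1-1 and leu2-3,112, together with his3-11 and can1-100, in which the second-largest Pol I subunit carried a tag for purification, RPA135-(HA)3-(His)7::TRP1. Cells were grown in YPD at 30°C, and the subphases were taken at different culture densities (OD600).

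The sequences around the 10 highest summits (positions that are the highest within 10 nt on either side), around 3 other positions with large changes (6150, 6455 and 6475) and around 3 modified bases are printed here because the results return to them. Capitals mark the peak position or the modified base, and each stretch reads 5′ to 3′ on the minus strand of R64.
Peak at 5158, chrXII:462402-462422: gggaagucggCaaaauagauc
Peak at 5417, chrXII:462143-462163: cgauggucagAaagugauguu
Peak at 5458, chrXII:462102-462122: cagugcucugAaugucaaagu
Peak at 5924, chrXII:461636-461656: gcucauggagAacagaaaucu
Peak at 6030, chrXII:461530-461550: agucccucggAauuugaggcu
Peak at 6299, chrXII:461261-461281: ucauucggauAauugguuuuu
Peak at 6318, chrXII:461242-461262: uugcggcuguCugaucaggca
Peak at 5349, chrXII:462211-462231: aauuaacgauCaacuuagaac
Peak at 5338, chrXII:462222-462242: ucgcuugcuaCaauuaacgau
Peak at 6150, chrXII:461410-461430: cauaccgaagCagaauucggu
Peak at 6455, chrXII:461105-461125: cuuguggcguCgcugaaccau
Peak at 6475, chrXII:461085-461105: uagcaggcuaGcaacggugca
Position 6411, chrXII:461149-461169: auuucuuugcUccacacaaua
1-methyladenosine of Bmt2 at 5393, chrXII:462165-462189: gacugucuaauuAaaacauagcauu
3-methyluridine of Bmt5 at 5885, chrXII:461673-461697: cggcacaucuguUaaacgauaacgc
3-methyluridine of Bmt6 at 6094, chrXII:461464-461488: gcagucaagcguUcauagcgacauu
Of the 10 summits 5 are an A, 4 a C and 1 a U, and at 4 of them (5417, 5458, 5924 and 6030) the RNA ends in G followed by A. The U is position 6411, which had 33571 RPM in early log replicate 1 and 99.3 to 667 RPM in the other 8 libraries.

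The libraries held 350940 to 7307420 reads on the repeat and 101296 to 2414348 in the region, with a median of 47 to 1003.5 reads per position, and no position of the region was at 0 reads in any library. The shallowest library was early log replicate 3, in which 1 read was worth 2.85 RPM, the deposited unit of read ends scaled to the reads of that library on the repeat. Every library is scaled to the same total, so all values are shares of the signal on the repeat, and the amount of Pol I per cell was not measured. Mid log had a sequencing run of its own, so that run and subphase cannot be told apart there. Early log replicates 2 and 3 shared a further run that held no other subphase. Early log replicate 1 was sequenced with the late log libraries. Only this early log library can be compared with late log within a run. Within the region the ranks of positions correlated between early log libraries with a Spearman rho of 0.834 to 0.929, against 0.961 to 0.985 between mid log libraries and 0.985 to 0.986 between late log libraries, over 1668 positions that are not independent. Early log replicate 1 stood apart: it exceeded every other library by more than 3-fold at 7 positions of the region, and no other library did so at any.

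The region held a larger share of the reads than of the positions in every library, and that share did not differ between subphases beyond the spread of the replicates. It took 35.6%, 27.9% and 28.9% of the reads on the repeat in early log replicates 1, 2 and 3. The 3 mid log libraries gave 30.4%, 32.4% and 33.6%, and the 3 late log libraries gave 34.8%, 32.8% and 33.5%. Early log spanned the widest range and overlapped both other subphases. The means were 30.8% ± 4.22, 32.1% ± 1.64 and 33.7% ± 1.04 in early, mid and late log (SD, n = 3 each), and an exact permutation test of the F value over all 1680 assignments of the libraries gave p = 0.471 (adjusted over 10 segments of the repeat, 0.471). Without position 6411 early log replicate 1 fell to 33.4%, the early log mean was 30.0% ± 2.96, and the exact p was 0.136 (adjusted 0.151, n = 3 each). Counting error was small beside this spread: the 95% Wilson interval of the shallowest library ran from 28.7% to 29.0%, which covers counting error only.

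Set against the 5′ portion of the 25S interior, which has the same number of positions, the 3′ portion held slightly more reads in every library. The ratio of reads in the 3′ portion to reads in the 5′ portion averaged 1.18 ± 0.177, 1.18 ± 0.0627 and 1.17 ± 0.0458 in early, mid and late log (SD, n = 3 each), and the exact permutation p was 1. Without position 6411 the early log ratio was 1.14 ± 0.103 and the exact p was 0.75. The lowest ratio of any library was 1.06, in early log replicate 2.

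The profile over 100 nt windows, numbered 1 to 17 from the 5′ end, kept a common shape. Window 3 (5150 to 5249) was the highest in early log, with 289, 285 and 329 RPM per position, once position 6411 was left out. It was also the highest in mid log, at 336, 362 and 338 RPM. In late log its mean was second to that of window 6, at 316, 279 and 273 RPM. Window 17 (6550 to 6617) had 293, 295 and 276 RPM in late log, above window 3 in replicates 2 and 3. Window 6 (5450 to 5549) had 263, 175 and 171 RPM in early log, 243, 263 and 295 RPM in mid log, and then 323, 305 and 325 RPM in late log, where it was the highest. Window 1 (4950 to 5049) was the lowest in early log replicates 2 and 3 and in mid log replicates 1 and 2. Window 4 (5250 to 5349), which lies between windows 3 and 6, was the lowest in late log replicates 1 and 2. The highest window exceeded the lowest by 2.12 to 3.5-fold across the libraries without position 6411.

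**Figure D1:**
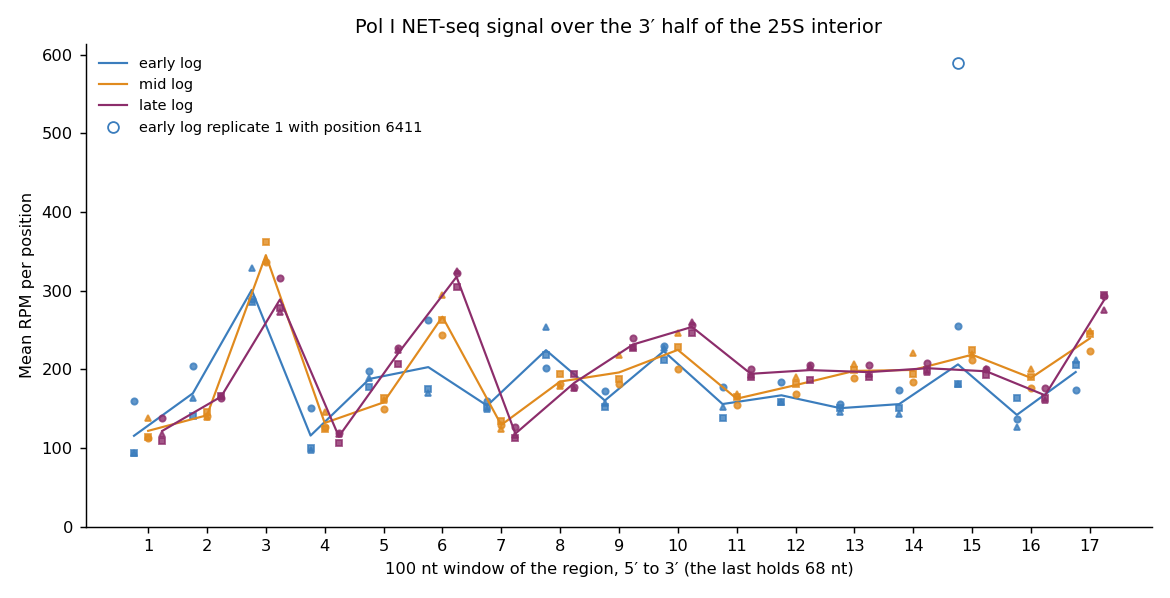
Mean RPM per position in each 100 nt window, 5′ to 3′ (x axis), with points for the 9 libraries (circle, square and triangle for replicates 1, 2 and 3) and lines through the mean of each subphase; window 15 is drawn without position 6411. The open circle is early log replicate 1 with that position, at 589 RPM, against 256 RPM without it.

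More windows rose than fell in late log over early log without sequencing run as a term, while the repeat as a whole had more windows that fell. Windows were tested with limma on log2 mean RPM over all 70 windows of the repeat and called at an adjusted p under 0.05. In late log over early log, 9 of the 17 windows rose and 2 fell, where 27.1% of all windows of the repeat rose and 44.3% fell. The 9 were windows 5, 6, 9, 10, 11, 12, 13, 14 and 17, and the 2 were windows 7 and 8. Window 9 (5750 to 5849) had 240, 228 and 228 RPM in late log, against 172, 152 and 157 RPM in early log. Its log2 change was 0.53 ± 0.06 (SE, adjusted p = 0.000499), and the groups did not overlap. Window 17 (6550 to 6617, the 3′ end of the region) had 293, 295 and 276 RPM in late log, against 173, 205 and 211 RPM in early log (log2 change 0.55 ± 0.09, adjusted p = 0.00163). Window 7 (5550 to 5649) went the other way, with 126, 113 and 116 RPM in late log, against 160, 152 and 150 RPM in early log (log2 change -0.38 ± 0.06, adjusted p = 0.00147). With sequencing run as a term, which compares early log replicate 1 with the late log libraries of its run, windows 5, 8, 10, 11 and 12 lost the call, windows 1, 2, 4 and 15 (with position 6411) were called lower and window 16 higher, which gave 6 windows higher and 5 lower.

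Between neighbouring subphases fewer windows changed. In mid log over early log, windows 13, 14 and 16 rose and windows 5 and 7 fell, 3 and 2 of 17, where 10% of all windows of the repeat rose and 15.7% fell. Window 13 (6150 to 6249) had 189, 199 and 207 RPM in mid log, against 156, 151 and 145 RPM in early log (log2 change 0.39 ± 0.05, adjusted p = 0.00482), and it was the only one of the 5 whose call survived the removal of any 1 library. In late log over mid log, windows 2, 5, 6, 9, 11 and 17 rose and windows 3, 15 and 16 fell, 6 and 3 of 17, where 24.3% and 20% of all windows did. All 3 of these falls were lost without late log replicate 2, without mid log replicate 2 and with median-centring. Those in windows 3 and 16 were also lost without late log replicate 3 or mid log replicate 3. The rises of windows 6 and 9 were lost without late log replicate 1 or 2 or mid log replicate 2. That of window 6 was also lost without late log replicate 3 or mid log replicate 1. Window 5 (5350 to 5449) held 227, 206 and 225 RPM in late log, against 149, 164 and 161 RPM in mid log (log2 change 0.47 ± 0.05, adjusted p = 0.000483). Early log lay between them, at 198, 177 and 189 RPM, and window 5 was called in all 3 comparisons. Window 11 (5950 to 6049) had 200.3, 189.8 and 193 RPM in late log, against 155, 165 and 169 RPM in mid log (log2 change 0.26 ± 0.04, adjusted p = 0.00246). Window 16 (6450 to 6549) had 176, 164 and 161 RPM in late log, against 176, 190.4 and 201 RPM in mid log (-0.18 ± 0.06, adjusted p = 0.0364). It was also higher in mid log than in early log, which had 136, 163 and 127 RPM (0.42 ± 0.10, adjusted p = 0.0293). The mid log peaks at 6455 and 6475, described below, lie in window 16. The median RPM per position of that window was not called, at 106, 98.3 and 90.6 RPM in mid log. In early log that median was 97.7, 138 and 103 RPM. Window 15 with position 6411 was not called against early log, at a log2 change of -0.46 ± 0.42 in late log over early log (adjusted p = 0.342), and without that position the change was -0.04 ± 0.13 (adjusted p = 0.779).

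**Figure D2:**
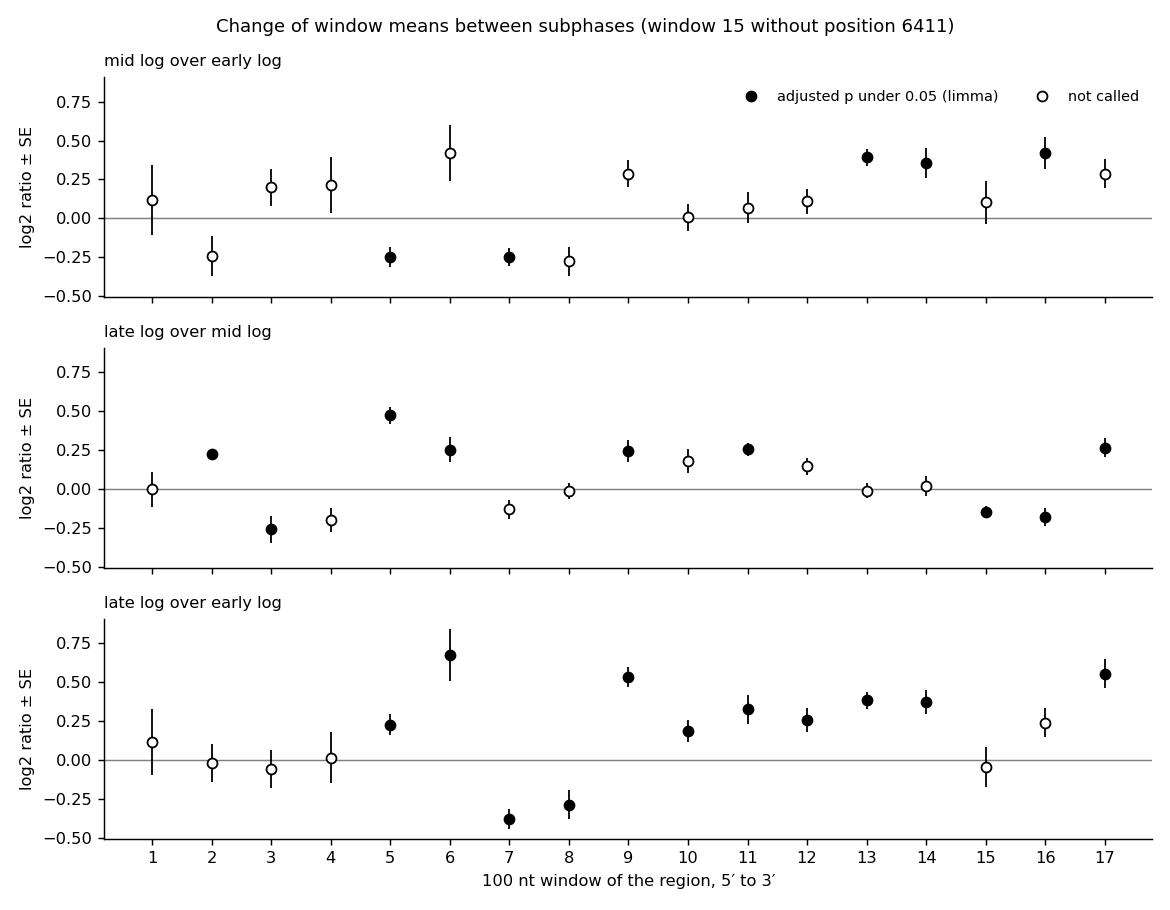
Log2 ratio of window means for each pair of subphases (y axis, bars are SE) by window, 5′ to 3′ (x axis); filled points were called by limma over the whole repeat, and window 15 is shown without position 6411. The points of windows 9 to 14 and 17 lie above 0 in late log over early log, and those of windows 7 and 8 lie below it.

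The medians of the windows moved differently from their means. With the median RPM per position in place of the mean, 2 windows of the region rose in late log over early log (12 and 17) and 6 fell (3, 4, 7, 8, 15 and 16), where 7.35% and 63.2% of all 68 windows with a median did. In late log over mid log, 2 rose (5 and 17) and 6 fell (3, 4, 13, 14, 15 and 16), beside 8.82% and 35.3% of all windows. In mid log over early log, 3 rose (9, 13 and 14) and 2 fell (5 and 7), beside 8.82% and 23.5%. Window 4 shows the contrast. Its median was 39.9, 39.5 and 39.3 RPM in late log, against 68.8, 64.1 and 59.9 RPM in early log, a log2 change of -0.70 ± 0.13 in limma, while its mean changed by 0.01 ± 0.17.

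Signal within the region was less even in late log than in early or mid log. The 90th percentile of RPM over the positions was 8.71, 6.87 and 8.88 times the 10th percentile in early log, 8.19, 10.01 and 10.8 times in mid log, and then 13.6, 14.2 and 14.2 times in late log. The late log libraries lay above all others. The 90th percentile averaged 352 ± 31.0, 388 ± 27.9 and 433 ± 11.1 RPM in early, mid and late log, and the 10th percentile averaged 43.5 ± 3.38, 40.3 ± 2.93 and 30.9 ± 1.53 RPM (SD, n = 3 each). The median position had 134 ± 1.32, 134 ± 2.51 and 126 ± 5.71 RPM. Leaving out position 6411 moved these 4 measures by less than their SD. Early log replicate 1 was at 8.71 and the late log libraries of the same sequencing run were at 13.6 to 14.2, so that the gap was also present within the run. The 5′ portion of the 25S interior had ratios of 6.96 ± 1.05, 7.34 ± 0.935 and 11.6 ± 0.615 in the 3 subphases, so the order was not particular to the 3′ portion.

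**Figure D3:**
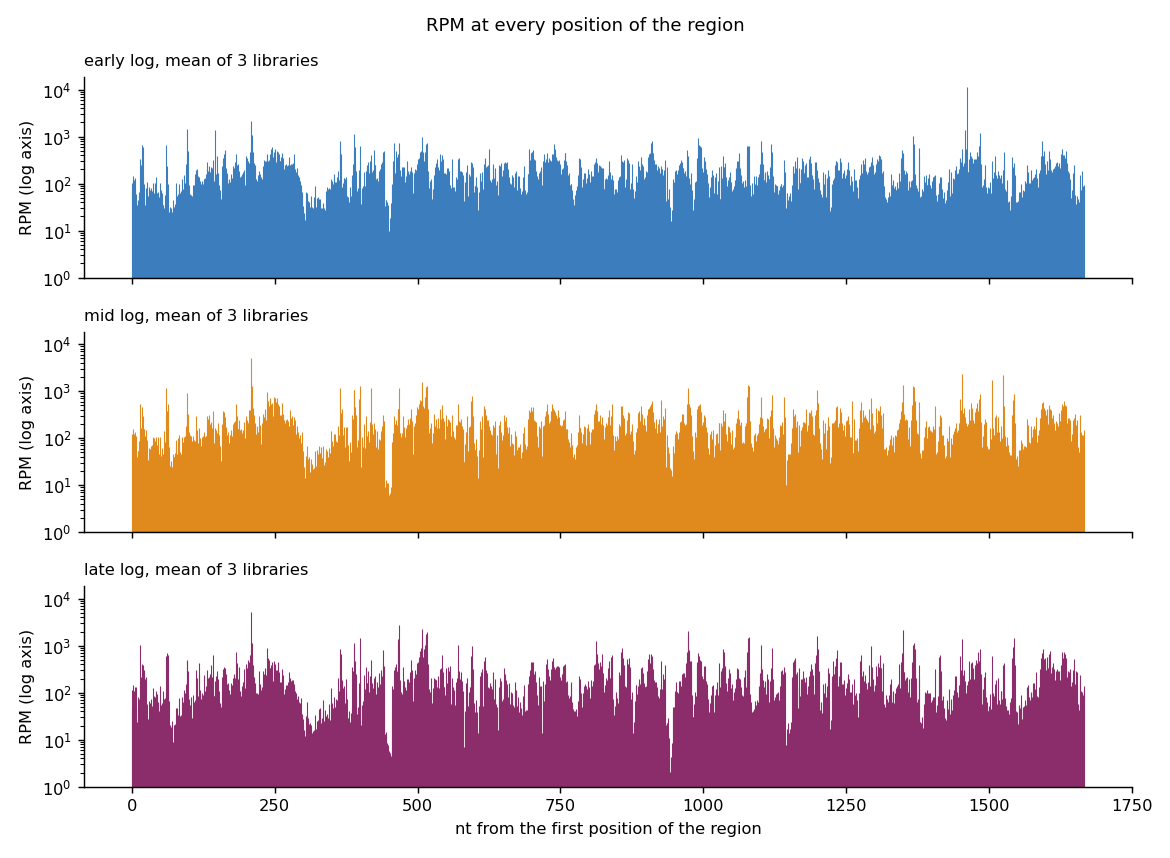
Mean RPM of the 3 libraries of each subphase (log axis) at each of the 1668 positions, by distance from the 5′ end of the region (x axis); the panels from top to bottom are early, mid and late log. The tallest line of the early log panel is position 6411, and the gaps that deepen in late log include the stretches after the modified bases at 5885 and 6094. The stretch after the modified base at 5393 was already low in mid log, which overlapped late log there.

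Single positions changed in both directions in each pair of subphases. They were tested with limma on log2(RPM + 1) over all positions of the repeat with a mean of at least 1 RPM, and all 1668 positions of the region passed that filter. In mid log over early log, 165 positions rose and 157 fell (9.89% and 9.41%), where 6.48% and 12.7% of all 6748 positions tested did. Late log over mid log had 339 positions that rose and 427 that fell (20.3% and 25.6%), beside 16.6% and 22.2% of 6722. Late log over early log had 310 that rose and 421 that fell (18.6% and 25.2%), beside 12.5% and 35.7% of 6746. The 5′ portion of the interior had 155 and 147, 343 and 510, and 307 and 457 such positions in the same 3 comparisons. The median log2 change was -0.03, -0.06 and -0.14 over the region and -0.27, -0.14 and -0.44 over all positions. With that overall shift set to 0 the region had 238 positions that rose and 64 that fell, 342 and 338, and 527 and 154. No count over the whole repeat is given for that setting, so these counts do not set the region apart. The number of mid log over early log calls depended on which library was left out. It was 2 without mid log replicate 2, 3 without mid log replicate 3 and 342 without mid log replicate 1. It was 160 without early log replicate 2, 140 without early log replicate 3 and 479 without early log replicate 1. Late log over early log had 455 without late log replicate 3.

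The highest peak of the region in all libraries but one was a C at 5158 in window 3. It had 1850, 2118 and 2445 RPM in early log, 4722, 5564 and 5123 RPM in mid log, and then 6808, 4692 and 4512 RPM in late log. All libraries of mid and late log lay above all of early log. The log2 change was 1.30 ± 0.33 in late log over early log (limma, adjusted p = 0.0102; 0.0553 without late log replicate 1) and 1.27 ± 0.43 in mid log over early log (adjusted p = 0.0721), and late log over mid log was at 0.03 ± 0.36. The A at 5161, 3 nt downstream, was among the 42 highest positions (2.5%) of every library as well.

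Summits were chosen by the mean of the 3 subphase means, so a position could enter the list through late log alone. With that limit, the 5 summits at an A gained signal in late log over early log. Other high A positions did not share this: 6434, in the top 2.5% of every library, had 859, 839 and 916 RPM in late log, against 1305, 978 and 1291 RPM in early log, and 5161 had 1072, 1106 and 1211 RPM in late log, against 1446, 764 and 1083 RPM in early log. Both were named after their values were seen. The A at 5924 had 496, 327 and 322 RPM in early log, 933, 1070 and 1447 RPM in mid log, and then 1826, 1958 and 2253 RPM in late log, with no overlap between subphases. Its log2 change was 1.59 ± 0.25 in mid log over early log (adjusted p = 0.0116), 0.83 ± 0.20 in late log over mid log (adjusted p = 0.00976) and 2.42 ± 0.23 in late log over early log (adjusted p = 7.01e-05). The A at 6299 had 521, 478 and 353 RPM, 937, 1191 and 1937 RPM, and 1921, 2300 and 2366 RPM in early, mid and late log, and late log was 2.29 ± 0.23 log2 units over early log (adjusted p = 8.43e-05) and 0.76 ± 0.26 over mid log (adjusted p = 0.0465). The mid and late log libraries overlapped there, and the calls of mid log over early log at 5924 and 6299 were lost without mid log replicate 2 or 3 (at 6299 also without early log replicate 3). The call of late log over mid log was lost at 5924 without mid log replicate 2 (adjusted p = 0.0525), and at 6299 without mid log replicate 2 or any 1 late log library (0.074 to 0.151), with edgeR (0.131), with median-centring (0.0954) and with no filter (0.0642). The A at 6299 lies 21 nt after the conserved A of the sarcin-ricin loop at 6278, which itself had 156, 141 and 185 RPM in early log, 122, 98.5 and 132 RPM in mid log, and then 171, 192 and 219 RPM in late log. The A at 5417 was raised chiefly in late log, with 982, 526 and 693 RPM in early log, 735, 1257 and 1515 RPM in mid log, and then 2779, 2388 and 3006 RPM in late log. Late log exceeded mid log there by 1.28 ± 0.27 log2 units (adjusted p = 0.00492) and early log by 1.93 ± 0.28 (adjusted p = 0.000567). The A at 5458 had 2389.8, 2201 and 2317 RPM in late log, against 1454, 720.1 and 775 RPM in early log (1.30 ± 0.30, adjusted p = 0.00593). The A at 6030 had 1559, 1444 and 1578 RPM in late log, against 1087, 436 and 336 RPM in early log (1.49 ± 0.37, adjusted p = 0.00902, lost with sequencing run as a term). Late log and early log did not overlap at either position.

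Not every summit was called. The C at 6318 had 1653, 747 and 707 RPM in early log, 1149, 1082 and 1649 RPM in mid log, and then 1256, 934 and 979 RPM in late log, and the subphases overlapped. The C at 5338 likewise averaged 1154 ± 715, 1079 ± 180 and 936 ± 134 RPM (SD, n = 3 each), with early log replicate 1 at 1979 RPM. Neither was called in any pair with no library left out and no run term, and a missed threshold does not show that they were equal. With sequencing run as a term, late log over early log was -1.09 at 5338 and -0.66 at 6318. Without early log replicate 1, limma called 6318 higher in late log over early log (0.53, adjusted p = 0.0212). It was then also called higher in mid log over early log (0.81, adjusted p = 0.0463). The C at 5349, 11 nt downstream of 5338, averaged 629 ± 216, 1291 ± 292 and 1444 ± 83.1 RPM and rose in late log over early log by 1.25 ± 0.25 log2 units (adjusted p = 0.00331).

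Near the 3′ end of the region, 2 positions peaked in mid log. The G at 6475 had 1869, 2108 and 2670 RPM in mid log, against 153, 219 and 200 RPM in early log, and 393, 397 and 363 RPM in late log. Mid log exceeded early log by 3.53 ± 0.22 log2 units (adjusted p = 0.00111), and late log over mid log was -2.51 ± 0.15 (adjusted p = 5.52e-05). The C at 6455, 20 nt upstream, had 1608, 1775 and 1832 RPM in mid log, against 142, 490 and 271 RPM in early log and 885, 492 and 450 RPM in late log (2.699 ± 0.396 over early log, adjusted p = 0.00969). The call at 6475 survived the removal of any 1 library in each pair. That at 6455 was lost in mid log over early log without mid log replicate 2 or 3. Since mid log had a sequencing run of its own, subphase and run cannot be told apart at both positions.

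The largest rises of late log over early log were at the G at 6363, the C at 6150 and the U at 6603. The G at 6363 had 556, 491 and 685 RPM in late log, against 64.0, 41.9 and 51.3 RPM in early log (3.44 ± 0.21, adjusted p = 2.54e-05), with mid log between them at 115, 170 and 221 RPM. At the C at 6150, late log had 1577, 1409 and 1749 RPM, against 313, 123 and 162 RPM in early log (3.09 ± 0.30, adjusted p = 8.43e-05). The U at 6603 reached 307, 288 and 287 RPM in late log, against 47.7, 43.0 and 19.95 RPM in early log (3.05 ± 0.30, adjusted p = 7.94e-05). The G at 6149, next to 6150, rose by 1.73 ± 0.19 in late log over mid log (adjusted p = 0.000238), and the G at 5416, next to the peak at 5417, by 1.72 ± 0.26 (adjusted p = 0.00087). The C at 5013 in window 1 had the largest rise of mid log over early log after 6475 and 6455, with 287, 534 and 807 RPM in mid log, against 205, 48.3 and 45.6 RPM in early log (2.68 ± 0.59, adjusted p = 0.022). That call was lost without early log replicate 2 or 3 and without mid log replicate 2 or 3.

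The positions named for a fall had at most 157 RPM in any late log library. The A at 5575 had 301, 140 and 90.9 RPM in mid log, against 429, 504 and 693 RPM in early log (-1.75 ± 0.40, adjusted p = 0.0244, lost without early log replicate 2 or 3 or mid log replicate 2 or 3). In late log it had 116, 119 and 133 RPM (-2.11 ± 0.20 over early log, adjusted p = 7.07e-05). The U at 5672 had 37.2, 27.0 and 31.6 RPM in late log, against 938, 170 and 145 RPM in early log (-3.13 ± 0.57, adjusted p = 0.00198), with early log replicate 1 far above the other early log libraries. The C at 5828 had 20.4, 12.6 and 8.47 RPM in late log, against 96.1, 73.1 and 88.1 RPM in mid log (-2.62 ± 0.30, adjusted p = 0.000277). The C at 5022 had 14.5, 11.4 and 0.77 RPM in late log, against 65.3, 34.1 and 37.7 RPM in mid log (-2.68 ± 0.73, adjusted p = 0.0166), and 0.77 RPM was 1 read.

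**Figure D4:**
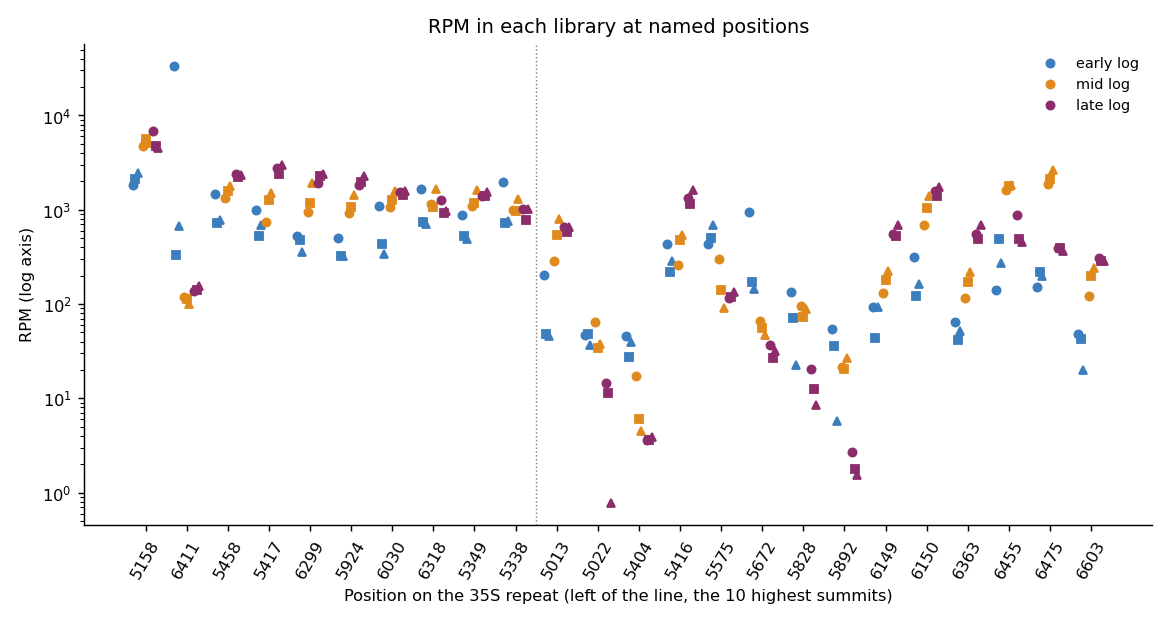
RPM of each library (log axis) at the 10 highest summits in order of their mean (left of the dotted line) and at the other positions with the largest changes by position (right), with early, mid and late log side by side. At 6475 the mid log points (1869 to 2670 RPM) stand above both others, and at 6411 early log replicate 1 stands alone at 33571 RPM.

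The sets of highest positions were close to each other within mid log and within late log, and less so within early log. Of the 42 highest positions of a library, 38.1% to 66.7% recurred in another early log library, 81.0% to 90.5% in another mid log library and 85.7% to 90.5% in another late log library. Between late and mid log libraries 57.1% to 76.2% recurred, between late and early log 23.8% to 42.9%, and between mid and early log 28.6% to 50%. In all, 112 positions were in the set of at least 1 library and 7 were in the sets of all 9. Those 7 were 5158, 5161, 5417, 5458, 5466, 6318 and 6434, of which 5 are an A and 2 a C. Another 8 positions were in all 3 late log sets and in no other, and 6 of them are an A, including 4965, 5521, 5762, 5808 and 6151. The A at 5762 had 1291, 1328 and 1176 RPM in late log, against 519, 499.7 and 585 RPM in mid log and 299, 361 and 408 RPM in early log. Only 4 positions were in the mid log sets alone (5199, 5368, 6091 and 6475), and 3 in the early log sets alone (5160, 5860 and 5941).

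Among all positions of the region, the median RPM at C positions and at A positions differed between the subphases without overlap. The medians are given as a description with no test. At the 339 C positions, the median was 135, 125 and 114 RPM in early log, 146, 157 and 154 RPM in mid log, and then 114, 102 and 102 RPM in late log. Mid log was above both other subphases in every library. Of the C positions, 181 fell (53.4%) in late log over mid log and 18 rose (5.31%), beside 47.4% and 5.30% of the C positions of the whole repeat. In mid log over early log, 53 C positions rose (15.6%) and 8 fell (2.36%), beside 10.5% and 5.21% on the repeat. At the 428 A positions the median was 172, 169 and 171 RPM in early log, 166, 163 and 160 RPM in mid log, and then 176, 176 and 181 RPM in late log. In late log over mid log, 121 A positions rose (28.3%) and 80 fell (18.7%), beside 22.0% and 15.7% of the A positions of the whole repeat. The G and U medians spanned 104 to 128 RPM and 115 to 131 RPM over the 9 libraries. At U all subphases overlapped, and at G early and late log did. The difference at C positions was present over the whole repeat, and subphase and sequencing run cannot be told apart in it.

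Among the 42 highest positions the A was over-represented in every library, most in late log. There were 16, 16 and 20 A positions among the 42 in early log, 17 in each mid log library, and 23, 26 and 25 in late log, or 41.3% ± 5.5, 40.5% ± 0 and 58.7% ± 3.64 (SD, n = 3 each), where A makes up 25.7% of the region. The exact permutation p over the 3 subphases was 0.0357, and 0.0714 adjusted over the 4 bases. C made up 11, 7 and 6 of the 42 in early log, 13 in each mid log library and 9, 5 and 6 in late log (exact p = 0.0321, adjusted 0.0714). G was at 22.2%, 20.6% and 17.5% and U at 17.5%, 7.94% and 7.94% in early, mid and late log (exact p = 0.593 and 0.107), against 27.6% and 26.4% of the region. None of the 4 bases passed the threshold after adjustment. With early log replicate 1 left out, A, C and G passed (adjusted p = 0.0476, 0.0476 and 0.0286, exact permutation), and A also did with early log replicate 3 left out (0.0143). Among the top 1% of positions, A was at 51.0%, 47.1% and 56.9% in early, mid and late log (adjusted p = 0.614, exact permutation). C had an adjusted p of 0.429 there. Among the top 5% of positions the adjusted p was 0.114 for A and 0.257 for C (exact permutation).

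The bases next to the highest positions were uneven too, given here as a description. The base that follows was an A at 50.8% ± 1.37 of the 42 positions in early log, 61.9% ± 6.30 in mid log, and then 70.6% ± 1.37 in late log (SD, n = 3 each), where 25.6% of positions in the region are followed by an A. The base before was a G at 47.6% ± 10.9, 45.2% ± 4.12 and 36.5% ± 1.37 of them, where 27.6% are preceded by a G. The pair GA, searched on the RNA strand with its A as the 3′ end, took 8 to 12 of the 42 highest positions in each library, although it makes up 7.13% of the region. The pair UA took 0, 0 and 2 of the 42 in early log, 2, 3 and 3 in mid log, and then 5, 8 and 5 in late log, and it makes up 5.88% of the region. The median RPM at the 98 UA positions was 185 ± 10.7, 195 ± 8.08 and 239 ± 3.52.

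**Figure D5:**
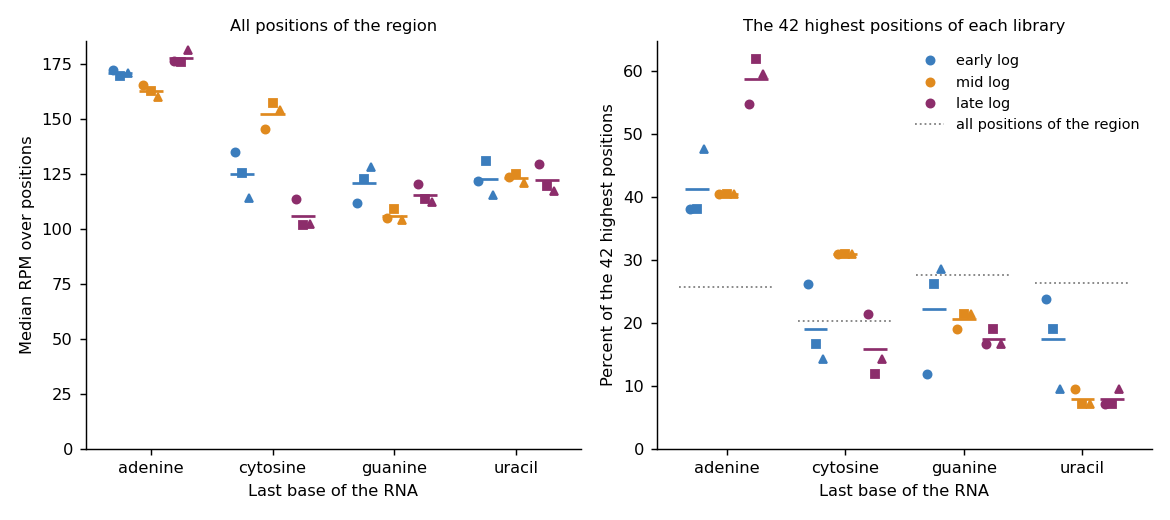
Median RPM over the positions of the region by their base (left) and share of the 42 highest positions of each library by base (right), with points for libraries and bars for subphase means, early, mid and late log side by side; the dotted lines are each base's share of the region. Cytosine is highest in mid log in both panels, and adenine reaches 54.8% to 61.9% of the highest positions in late log.

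The lowest positions of the region lay mostly in a few short stretches, some of them at methylated bases and others not. Of the 42 positions with the lowest mean, 20 fell within the 12 nt that begin at the 1-methyladenosine of Bmt2 or at the 3-methyluridines of Bmt5 and Bmt6, which together cover 36 positions (2.16% of the region). The length of 12 nt was chosen after the values were seen, so no test is given. Another 11 lay in 2 stretches of window 4 with none of the listed modified bases. Positions 5251 to 5253 averaged 19.5 ± 2.37, 20.46 ± 0.677 and 12.6 ± 1.02 RPM in early, mid and late log, and 5261 to 5273 averaged 36.4 ± 4.51, 23.1 ± 6.83 and 17.1 ± 1.37 RPM (SD, n = 3 each). The 12 nt from the 1-methyladenosine at 5393 averaged 34.8, 23.8 and 22.1 RPM in early log, 12.2, 6.77 and 5.998 RPM in mid log, and then 6.35, 8.14 and 7.57 RPM in late log. This was 0.11 ± 0.02, 0.05 ± 0.02 and 0.03 ± 0.01 of the mean of the 25 nt before it (SD, n = 3 each). The U at 5404, the last of these positions, fell by 3.02 on the log2 scale in late log over early log (SE 0.37, adjusted p = 0.000244).

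At the 3-methyluridine of Bmt5 (5885) the 12 nt averaged 76.2, 43.2 and 28.7 RPM in early log, 37.7, 28.6 and 39.0 RPM in mid log, and then 13.1, 12.1 and 10.6 RPM in late log. At that of Bmt6 (6094) they averaged 53.6, 40.2 and 32.3 RPM, 39.5, 27.4 and 36.5 RPM, and 15.6, 12.6 and 13.5 RPM in the same order. Late log lay below all other libraries at both sites, while the early and mid log means of both spans were above those of the 2 stretches of window 4. The U at 5892, inside the first stretch, had 2.72, 1.80 and 1.54 RPM in late log, against 21.4, 20.4 and 26.9 RPM in mid log (-2.99 ± 0.40, adjusted p = 0.000535), which rests on as few as 2 reads. Values at the 5-methylcytidines were higher: the 12 nt from the site of Rcm1 at 5529 averaged 97.7 ± 41.4, 92.2 ± 4.42 and 67.2 ± 7.41 RPM, and those from the site of Nop2 at 6121 averaged 214 ± 31.3, 177 ± 9.74 and 171 ± 5.72 RPM. The 12 nt from the conserved A of the peptidyl transferase loop at 6071 stood at 0.39 ± 0.01, 0.41 ± 0.01 and 0.39 ± 0.01 of the mean of the 25 nt before (SD, n = 3 each), and the subphases overlapped. A 1-methyladenosine outside the region, made by Rrp8 at 3896 in the 5′ portion, had a gap of the same kind, at 17.6 ± 2.64, 9.11 ± 4.41 and 3.57 ± 0.57 RPM over 12 nt. The part of base modification in these gaps was not tested.

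Position 6411, a U in window 15, was an outlier of a single library. It had 33571 RPM in early log replicate 1, 3.36% of all reads of that library on the repeat and 9.42% of its reads in the region (Wilson interval 9.34% to 9.49%). The other early log libraries had 329 and 667 RPM, mid log had 119, 113 and 99.3 RPM, and late log had 136, 140 and 157 RPM. The G at 6409 and the C at 6410, just upstream, were raised in the same library alone, at 3682 and 1239 RPM, against at most 197 and 222 RPM in the other 8, while the C at 6412 had 113 RPM there. The G at 5096 in window 2 was also peculiar to this library, at 3716 RPM, against 48.7 to 311 RPM in the others. Late log over early log at 6411 was -3.75 ± 1.32 log2 units (adjusted p = 0.0383), and -1.69 without early log replicate 1 (adjusted p = 6.96e-05). Without late log replicate 1, 2 or 3 that call was lost (adjusted p = 0.0772 to 0.0945).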

How the data were processed

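NET-seq libraries of yeast in early, mid and late log were analysed from 3 tables of RPM per position of the 35S repeat. To make the deposited RPM values the authors collapsed duplicate reads (Fqtrim), trimmed linkers (Cutadapt 3.4), aligned the reads to R64-1-1 (STAR 2.7.3a), counted read ends per position (BEDTools 2.28.0) and divided by the reads of the library on the repeat. Each library's columns were identical in the tables that share it. The columns carry no subphase in their names and were assigned through the pair of subphases that names each table. The authors' RPM values were whole multiples of 1 read at 99.9% to 100% of positions (tolerance 0.1 read), from which read counts were recovered.

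Positions whose mean was 1 RPM or more were fitted as log2(RPM + 1), and windows of 100 nt as log2 mean RPM, pair by pair over the whole repeat with limma 3.58.1 (empirical Bayes with a trend, Benjamini-Hochberg, adjusted p under 0.05). Fold changes are on the log2(RPM + 1) scale, which understates those of low positions. Shares, ratios and base counts were compared by exact permutation of the libraries, two-sided. A pair of subphases with 3 libraries each cannot go below an exact p of 0.1. The fits were tested on simulated data. The named positions were the 10 highest summits, the 3 largest called rises and falls of each pair, 6411, and the listed landmarks of 25S; the positions found in all or only some libraries, and those high in 1 library alone, were named after their values were seen. The region, the lists and the tests were chosen with earlier results of these data known. Reads of all rDNA copies map to 1 repeat. Replicate numbers did not pair the libraries. The deposited tables hold no other samples. Alternatives were the pseudocount, the filter, median-centring, sequencing run, a replicate block, edgeR 4.0.16 on the recovered counts, other window sizes, other peak definitions and leaving out each library.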

Additional observations from a re-analysis of the deposited data

How the results depend on the processing

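Of the 50 calls at named positions, 28 held when any 1 library was left out, and of the 25 window calls, 11 did. With the other settings counted as well, window medians among them, 27 of the position calls and 5 of the window calls held throughout. Leaving out 1 library gave 2 to 479, 551 to 808 and 455 to 887 called positions in mid log over early log, late log over mid log and late log over early log, beside 322, 766 and 731. The share of windows called was 5.88% to 76.5%, 23.5% to 52.9% and 35.3% to 82.4%, beside 29.4%, 52.9% and 64.7%. In mid log over early log it was 76.5% without early log replicate 1, 17.6% without early log replicate 2 and 5.88% without early log replicate 3, mid log replicate 2 or mid log replicate 3. In late log over mid log it was 29.4% without late log replicate 2 and 23.5% without mid log replicate 2. In late log over early log it was 41.2% without early log replicate 3 or late log replicate 3 and 35.3% without late log replicate 1. For the peak bases the F value ranged over 13.3 to 66.0 for A, 5.61 to 21.0 for C, 0.294 to 28.7 for G and 2.61 to 36.1 for U, and for the share of reads over 0.369 to 11.5 (lowest adjusted p = 0.0556, by exact permutation).

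With the replicate number as a replicate block, mid log over early log had 91 called positions and 5.88% of windows, and the other position counts were 751 and 750. Same-numbered libraries correlated in their deviations between -0.468 and 0.359, and no pairing is stated. The block ended the calls of windows 5, 7, 14 and 16 and of positions 5013, 5349, 5404, 5575, 6149 and 6299 in mid log over early log, of windows 3 and 16 and position 6411 in late log over mid log, and of window 10 in late log over early log. The adjusted exact p of A and of C among the peaks became 0.222 with permutation within replicate numbers. In 50 nt windows 17.6% were called in mid log over early log, and median-centring left 23.5% in late log over mid log. With only the highest position within 10 nt, U among the peaks had an F of 4.03 (exact permutation, adjusted p = 0.0286). edgeR on recovered reads called 222 rises and 51 falls, 286 and 319, and 516 and 188 in the region in the 3 pairs. No count over the whole repeat is given for edgeR either.

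The changes of sign listed here are those of values called in the main fit or in the alternative. Values called in neither also changed sign in places. Window 3 in mid log over early log, for one, was at 0.20 with means and at -0.04 with medians. With the sequencing run as a term, late log over early log was -0.66 at position 6318, -0.40 in window 1 and -0.39 in window 4. Window 15 in mid log over early log ranged over -0.61 to 0.23 as 1 library was left out, and was above 0 only without early log replicate 1. With window medians, window 16 was at -0.19 in mid log over early log; windows 6, 9 and 14 were at -0.067, -0.10 and -0.25 in late log over mid log; and windows 4, 5, 10 and 16 were at -0.70, -0.15, -0.16 and -0.54 in late log over early log. Depth limits the low positions most: early log replicate 3 had 1 read for each 2.85 RPM, and 3 reads there are 8.55 RPM.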
